A study of Mus musculus with 82 samples.

Results

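The 4 arrays of NOD/ShiLtJ and NOR/LtJ mice, 2 pools of each strain, were compared with 33 groups of other inbred strains derived mainly from the house mouse subspecies domesticus. They are 4 of the 82 arrays of a survey of naive CD4 T cells across inbred strains, and the 33 comparison groups hold 68 arrays. The members were defined by the strain label, and they were chosen with earlier results of these data known. NON/ShiLtJ (2 arrays) and 4 strains, JF1/Ms, MSM/Ms, PWD/PHJ and CAST/EiJ (8 arrays), which carry genomes of other subspecies in whole or in large part, were kept out of the comparison and are given as values.

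Each array measured RNA of spleen cells of male mice, sorted as CD3+, CD4+ and CD62L+ and negative for a set of markers that included CD8, CD11c, CD25, CD49b, Gr1 and Ter119. The cells came from pools of 2 to 3 mice. Their age was 6 weeks per the labels and 5 weeks per the series text. The labels name no treatment, and all groups are inbred strains. The comparison groups are 129S1/SvImJ, A/J, AKR/J, BALB/cByJ, BPL/1J, BTBR T+ tf/J, C3H/HeJ, C57BL/10J, C57BL/6J, C57BLKS/J, C57L/J, CBA/CaJ, CBA/J, CE/J, DDY/JclSidSeyFrkJ, FVB/NJ, KK.Cg-Ay/J, LGJ, LP/J, MA/MyJ, MRL/MpJ, NZB/BINJ, NZW/LacJ, P/J, PL/J, RIIIS/J, SEA/GnJ, SJL/J, SM/J, SWR/J and WSB/EiJ, with arrays titled C57BR and DBA2. Those last arrays carry the background labels of other strains, and were kept as groups under their titles. C57BL/6J has 5 arrays, SWR/J has 1 and the other comparison groups have 2 each. KK.Cg-Ay/J carries the Ay allele of the agouti locus.

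NOD mice develop spontaneous autoimmune diabetes, in which T cells destroy the insulin-producing cells of the pancreas, and they are a standard model of human type 1 diabetes. NOR is a recombinant congenic relative of NOD that carries stretches of C57BLKS genome, shares the diabetes-associated major histocompatibility haplotype and is resistant to diabetes. A transcript that is set apart in both strains does not tell the diabetic strain from its resistant relative. A naive CD4 T cell is a helper T cell that has not yet met its antigen and keeps the receptors that guide it into lymph nodes.

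The defining markers of the sorted cells were present. Cd3e, part of the T cell receptor, lay between 6790 and 7640 intensity units on the 4 arrays and between 5230 and 8680 on the comparison arrays. Cd4 lay between 4900 and 5710, against 2780 to 5790. Cd8a, which marks the excluded CD8 T cells, lay between 75.4 and 91.1, against 63.4 to 217. Il2ra, which encodes CD25 and so marks cells that the sort excluded, lay between 514 and 1060, against 245 to 1230, above the median of all values of 113.1 on each of the 4 arrays. The mean over 18 B cell markers was 5.71 to 5.85 log2 units on the 4 arrays, within the comparison range of 5.68 to 8.50. The means over 16 neutrophil markers (5.51 to 5.82 log2 units, against 5.38 to 7.25) and 19 myeloid markers (6.10 to 6.29, against 6.07 to 7.17) also lay within the comparison range. In bulk samples, fewer cells of a type and less RNA per cell cannot be told apart. Over all 24922 probe sets, the NOD mean correlated more closely with the NOR mean (r = 0.9959) than with that of any of the other strains, the next being CBA/J (r = 0.9939). The group next closest to NOR after NOD was C57BLKS/J (r = 0.9941). These correlations run across genes, which are not independent replicates.

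The question asked was which transcripts are set apart in both strains. The means of NOD and NOR were compared with the 33 strain means in limma, with the strain as the unit and Benjamini-Hochberg adjustment across all probe sets. Fold changes and differences are between the mean of the 2 strains and the mean of the 33 groups on the log2 scale, ± is the standard error of that difference, and a transcript passed at an adjusted p below 0.05. A total of 33 probe sets passed, 0.132% of those tested, with 18 higher (0.0722%) and 15 lower (0.0602%). Of these, 10 were at least 2-fold higher and 10 at least 2-fold lower, and 604 probe sets had an unadjusted p under 0.05. The 33 include 27 genes with a single symbol, of which 24 met the rule for naming, 13 higher and 11 lower. In 21 of the 24, both strain means lay beyond the whole range of the 33 groups, and in 18 all 4 arrays did. Across all probe sets, 70 had both strain means outside the range (0.281%), and 29 of these passed (0.116%), 15 above the range (0.0602%) and 14 below it (0.0562%).

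NOD and NOR share ancestry, so their 2 means are not independent values. With both averaged into 1 value, 16 probe sets passed, all of them among the 33. Of the 24 named genes, 11 passed that stricter fit, 6 higher (Cyp4f16, Rnf157, Zgrf1, Cd177, Slc37a1 and Fbxl21) and 5 lower (S100a11, Prkca, Suclg2, Gimap3 and Ankib1). The other 13 had adjusted p-values from 0.148 to 1 in that fit, with the same direction. The adjusted p-values below are those with the strains as 2 values, and for genes that lost the call the second p is given as "as 1 value".

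**Figure D1:**
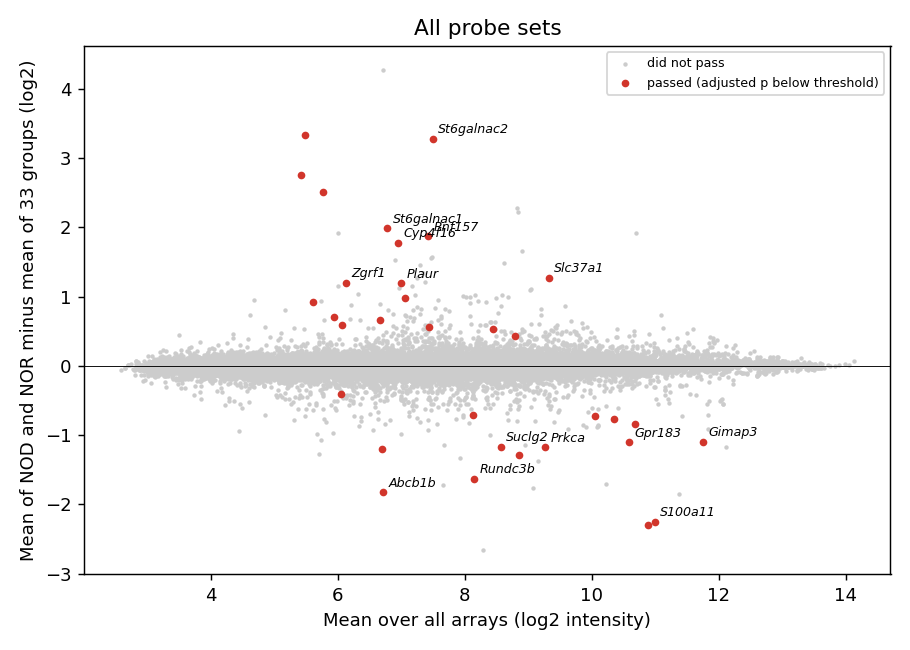
The difference between the mean of NOD and NOR and the mean of the 33 groups (y axis, log2) against the mean over all arrays (x axis, log2 intensity), 1 point per probe set. The 33 probe sets that passed the limma test are red, with names for those beyond 1 log2 unit that met the naming rule. The named differences run from 3.28 for St6galnac2 to -2.25 for S100a11.

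The largest fall was that of S100a11, a calcium-binding protein of the S100 family. Its intensities were 485 and 392 in NOD and 482 and 426 in NOR, against 1504 in the lowest comparison group (CBA/J) and 3834 in the highest (RIIIS/J). No array of either strain came near the comparison groups. The mean of the 2 strains was 4.76-fold lower than the comparison mean of 2115 (difference -2.25 ± 0.21, limma adjusted p = 6.70e-09). A second probe set annotated to the same symbol fell by 2.30 log2 units (adjusted p = 1.78e-08). NON/ShiLtJ, which shares a part of its name and of its breeding history with NOD, had 1785 and lay inside the comparison range.

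Proteins of calcium and kinase signalling were also among the genes that fell. Prkca, which encodes protein kinase C alpha, had 254 and 314 in NOD and 310.5 and 250.5 in NOR. The comparison groups ran from 338 in A/J to 857 in WSB/EiJ, so that all 4 arrays lay below the range, although A/J came close. The fold was 2.26 lower (difference -1.18 ± 0.16, adjusted p = 1.06e-05). Saraf, a membrane protein of the endoplasmic reticulum that restrains store-operated calcium entry, had 823 and 724 in NOD and 783 and 772 in NOR, against 879.9 to 1605. It was 1.71-fold lower (adjusted p = 0.00179, and 0.3 as 1 value).

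Gimap3 belongs to the GTPases of immunity-associated proteins, a gene family that supports the survival of lymphocytes. Its intensities were 1582 and 1595 in NOD and 1935 and 1886 in NOR, against 2230 in the lowest comparison group (A/J) and 4621 in the highest (BPL/1J). The 4 arrays lay below all 33 groups, and NON/ShiLtJ at 2193 lay just below them too. The fold was 2.14 lower (difference -1.10 ± 0.16, adjusted p = 8.87e-05). All 8 measured members of the family had a mean below the comparison mean, with a median difference of -0.48, against 0.01 over all probe sets. Gimap3 alone passed the test on strain means. Among the other members, Gimap7 had 251 and 197 in NOD and 284.5 and 221 in NOR against a comparison mean of 519 (difference -1.14, adjusted p = 1). Gimap5 had 382 and 372 in NOD and 517 and 466 in NOR against 638 (difference -0.57, adjusted p = 0.947), and NOD lay below the lowest comparison group, A/J at 428, while NOR did not. Gimap4 had 2901 and 3259 in NOD and 3238 and 2763 in NOR against 4426 (difference -0.55, adjusted p = 0.296). For Gimap7 and Gimap4 both strain means lay inside the comparison range. With arrays in place of strains as replicates, a fit that leaves out the spread between strains, 6 of the 8 were lower (75%), where 3.60% of all probe sets passed in either direction and 1.63% in the lower. Sequences of this family resemble one another, and cross-hybridization between its members was not tested.

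Receptors at the cell surface moved both ways. Gpr183, an oxysterol receptor that guides lymphocytes within lymphoid organs, had 864 and 745 in NOD and 709.9 and 589 in NOR. The lowest comparison group was 129S1/SvImJ at 819.8 and the next FVB/NJ at 1216, so 3 of the 4 arrays lay below the range. It was 2.14-fold lower (difference -1.10 ± 0.18, adjusted p = 0.000748, and 0.155 as 1 value). Plaur, the receptor of the urokinase plasminogen activator, was higher, with 241 and 223 in NOD and 281 and 254 in NOR against 81.5 to 186. Its 3 highest comparison groups were SJL/J, C3H/HeJ and CBA/J, at 186, 183 and 180.1. The fold was 2.29 (difference 1.19 ± 0.20, adjusted p = 0.00117, and 0.222 as 1 value). Cd177, a glycoprotein best known from the surface of neutrophils and a relative of Plaur in its domains, had 219.7 and 229 in NOD and 261 and 253 in NOR, against 100.5 to 192. All 4 arrays lay above the range, and the fold was 1.97 (difference 0.98 ± 0.13, adjusted p = 9.09e-06). The neutrophil marker means given above lay within the comparison range on these 4 arrays, and the part of such cells in the Cd177 and Plaur values was not tested. The 2 genes also lie close together on chromosome 7, with Plaur starting near base 24462233 and Cd177 near base 24760262 of GRCm38.p6. The part of that shared location in their values was not tested.

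4 named genes take part in tagging proteins with ubiquitin. Crbn, the substrate receptor of an E3 ligase and the target of thalidomide, had 965 and 963 in NOD and 1056 and 918 in NOR, below the comparison range of 1322 to 2321. It was 1.78-fold lower (adjusted p = 0.0028, and 0.396 as 1 value). Ankib1, an E3 ligase of the RING-between-RING type, had 619.8 and 658 in NOD and 701 and 687 in NOR, against 905 to 1279. Its 4 arrays all lay below the range, with a small spread among the 33 groups, and the fold was 1.66 (difference -0.73 ± 0.08, adjusted p = 4.05e-07). Rnf157, an E3 ligase described in neurons, was higher, with 449 and 485 in NOD and 645 and 581 in NOR against 82.9 to 213. The lowest of the 33 groups was C57BLKS/J, the other parent of NOR. The fold was 3.66 (difference 1.87 ± 0.22, adjusted p = 7.06e-07).

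Fbxl21, an F-box protein that acts on the circadian cryptochromes, passed through NOR alone. NOR had 202 and 139 and NOD 51.5 and 45.5, while the comparison groups ran from 39.0 to 65.9, so that NOD lay inside the range. The difference of both strains from the comparison mean was 0.92 ± 0.19 (adjusted p = 0.0277), that of NOD alone 0.03, and NOD and NOR differed from each other by -1.79 (adjusted p = 9.26e-14). The joint call was lost without NOD replicate 1 (adjusted p = 0.0688) or NOR replicate 1 (adjusted p = 0.0651), with quantile normalization (0.0791) and with arrays centred on their medians (0.0614). C57BLKS/J, at 46.2, did not share the NOR level.

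Enzymes of mitochondrial, lipid and sugar metabolism made up another set. Suclg2, the GTP-forming subunit of succinyl-CoA ligase in the citric acid cycle, had 172 and 157 in NOD and 190.0 and 182 in NOR, against 304 in NZW/LacJ and 487 in WSB/EiJ. All 4 arrays lay well below the range. The fold was 2.25 lower (difference -1.17 ± 0.12, adjusted p = 3.77e-08), and a second probe set of the gene fell by 1.28 log2 units. Fmo5, a flavin-containing monooxygenase, had 151 to 184 on the 4 arrays against 216 to 348 and was 1.63-fold lower (adjusted p = 0.000972, and 0.202 as 1 value). Cyp4f16, a cytochrome P450 of the family that hydroxylates fatty acids, was higher, with 368 and 385 in NOD and 400.3 and 437 in NOR. LGJ had a mean of 367, at the edge of the NOD values, and the other 32 groups lay at or below 161. The fold was 3.43 (difference 1.78 ± 0.26, adjusted p = 9.71e-05).

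Slc37a1, a transporter that exchanges glucose-6-phosphate for phosphate, was higher in both strains and most of all in NOR. NOR had 2248 and 2267 and NOD 917 and 912, against 487 to 849 in the comparison groups. The joint difference was 1.28 ± 0.16 (adjusted p = 1.77e-06), and NOD minus NOR was -1.30 (adjusted p = 7.47e-15). Retsat, a retinol saturase, had 129 and 136 in NOD and 176 and 157 in NOR. KK.Cg-Ay/J, at 139, lay above both NOD arrays, and the fold was 1.58 (adjusted p = 0.0199, and 1 as 1 value). Abhd15, a hydrolase-like protein of fat metabolism, had 236 and 236 in NOD and 271 and 268 in NOR against 129 to 225 (1.48-fold, adjusted p = 0.0364, and 1 as 1 value). Retsat and Abhd15 lost the call when arrays were centred on their medians, with adjusted p-values of 0.0563 and 0.0614, and Abhd15 also without PL/J and A/J (0.0559).

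3 named genes act on nucleic acids or chromatin. Zgrf1, a DNA helicase of repair, had 175 and 206 in NOD and 161 and 94.6 in NOR, against 50.6 to 88.7. The 4 arrays lay above the range and NOR replicate 2 lay close to it (fold 2.30, adjusted p = 1.07e-05). The other 2 probe sets of Zgrf1 did not pass, with differences of 0.03 (adjusted p = 1) and 0.50 (adjusted p = 0.335), so that the gene's probe sets disagree. Rtca, the RNA 3'-terminal phosphate cyclase, had 484 and 469 in NOD and 529 and 448 in NOR against 249.5 to 405 (fold 1.45, adjusted p = 0.0396, and 1 as 1 value). The call of Rtca was lost without NOR replicate 1 (0.129), without C57BL/6J (0.05), with arrays centred on their medians (0.141) and with the B cell marker mean as a covariate (0.0542). Ehmt2, a histone H3 lysine 9 methyltransferase also called G9a, had 556 to 599.5 on the 4 arrays against 353 to 530.0 (fold 1.35, adjusted p = 0.0409, and 1 as 1 value). The call of Ehmt2 was lost without NOD replicate 2 (0.0502) and NOR replicate 1 (0.0992), and without any of 13 comparison strains taken singly (up to 0.054). It was also lost with arrays centred on their medians (0.147), with quantile normalization (0.114), with a trended and robust prior (0.07) and with the B cell covariate (0.0579). Without PL/J and A/J the adjusted p was 0.0585, with NON/ShiLtJ added it was 0.0539, and without the C57BR-titled and DBA2-titled groups it was 0.0501.

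**Figure D2:**
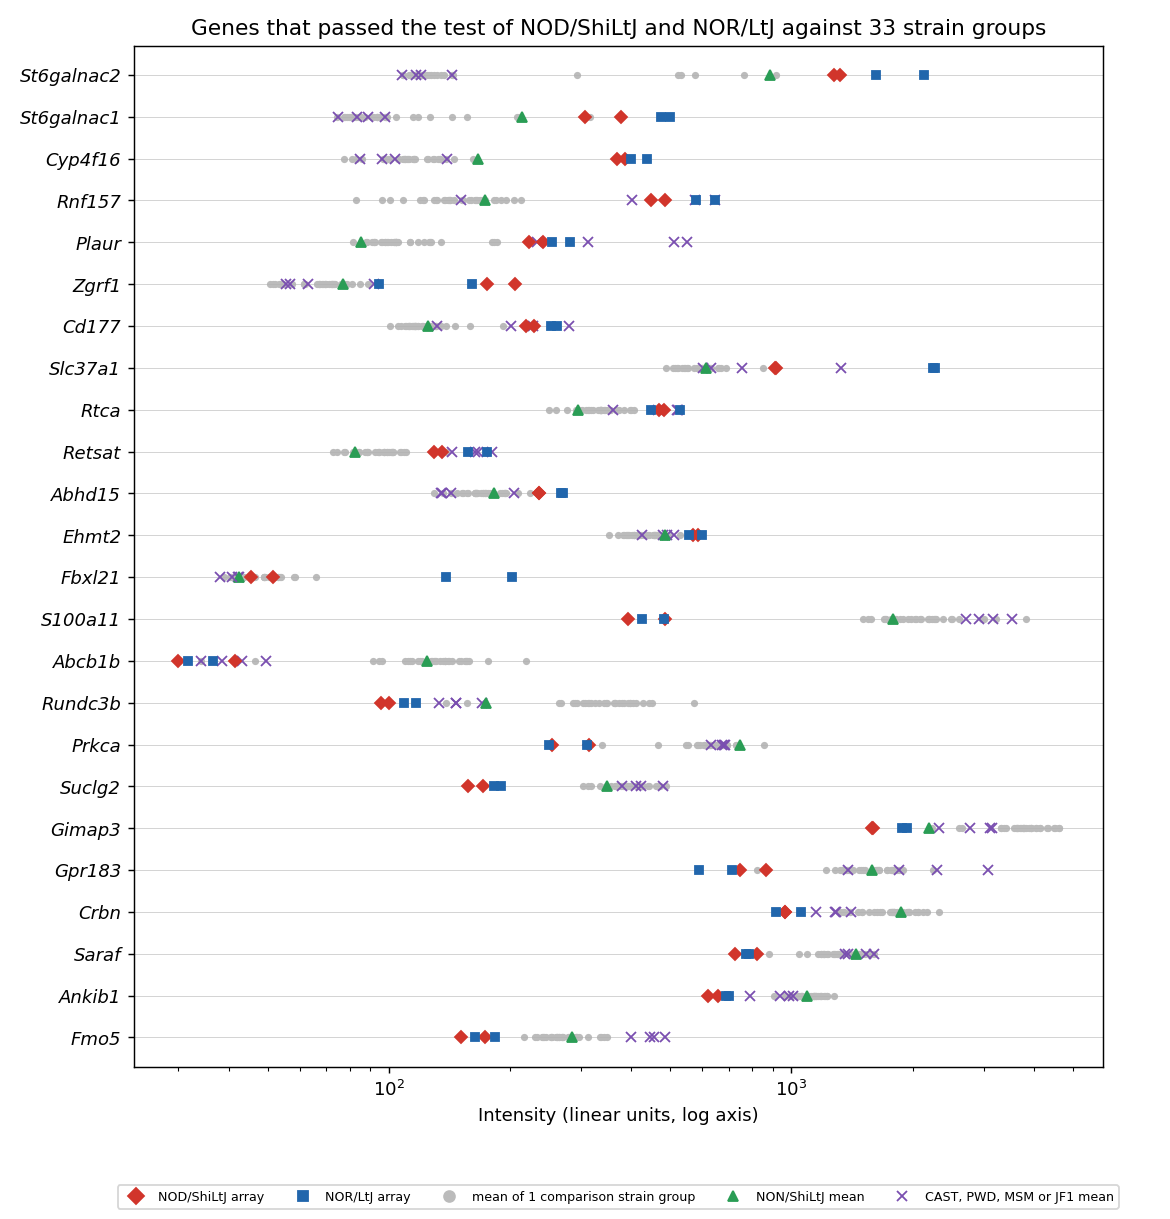
Intensity (x axis, log scale) of the 24 named genes in the 2 NOD arrays (red diamonds), the 2 NOR arrays (blue squares), the 33 comparison group means (grey), NON/ShiLtJ (green triangles) and the strains JF1/Ms, MSM/Ms, PWD/PHJ and CAST/EiJ (purple crosses). The NOD and NOR arrays lie apart from every grey point for S100a11 (392 to 485 against 1504 or more) and Suclg2 (157 to 190.0 against 304 or more), whereas for Abcb1b the AKR/J group at 34.2 lies among them.

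Some of these genes are neighbours on the chromosome. Gene order was taken from the RefSeq annotation of GRCm38.p6, and 2 genes were called neighbours within 10 measured genes of each other. Of the 27 genes that passed, 5 (18.5%) had another that passed as a neighbour, against 2.40% of the other 19650 genes. They formed 2 runs, 1 of higher and 1 of lower genes.

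The higher run held Rnf157, St6galnac2 and St6galnac1. St6galnac2 lay 10 measured genes from Rnf157, at the limit of the neighbour rule. St6galnac1 and St6galnac2 encode sialyltransferases that add sialic acid to the first sugar of O-linked glycans on proteins. St6galnac2 had 1278 and 1321 in NOD and 1626 and 2138 in NOR, against a comparison mean of 161. The median of the groups was 121, and the highest were 129S1/SvImJ at 913, NZB/BINJ at 762 and KK.Cg-Ay/J at 576. NON/ShiLtJ had 883. The fold was 9.70 (difference 3.28 ± 0.61, adjusted p = 0.00509, and 0.556 as 1 value). St6galnac1 had 307 and 377 in NOD and 499.9 and 475 in NOR, with 129S1/SvImJ again the highest comparison group at 316, between the NOD arrays. The fold was 3.97 (difference 1.99 ± 0.33, adjusted p = 0.000669, and 0.148 as 1 value).

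2 other genes between Rnf157 and St6galnac1 had large differences and did not pass. BC018473 had 1462 and 1531 in NOD and 1820 and 2365 in NOR against a comparison mean of 91.3, but NZB/BINJ had 1753 (difference 4.27, adjusted p = 0.432). Snhg16, a small nucleolar RNA host gene, had 270.0 and 326 in NOD and 456 and 390.1 in NOR against 128 to 366 (difference 0.95, adjusted p = 0.0787). The genes that lie between Rnf157 and Snhg16, from Qrich2 to Prcd, did not share the difference. Apart from Rhbdf2 (0.11 in NOD and 0.45 in NOR), they lay within 0.23 log2 units of the comparison mean in both strains. The genes on the far sides of the run, from Trim65 to Foxj1 and from Mxra7 on, lay within 0.34 log2 units of the comparison mean in both strains.

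The lower run held Rundc3b and Abcb1b. Abcb1b encodes P-glycoprotein, a pump that exports drugs and other compounds from the cell, and Rundc3b encodes a protein with a RUN domain. Abcb1b had 41.6 and 29.9 in NOD and 36.5 and 31.7 in NOR, against a comparison mean of 123. AKR/J at 34.2 was as low, SM/J at 46.4 lay a little above the 4 arrays, and the other groups started at 91.5 in PL/J. Of the strains kept out of the comparison, JF1/Ms had 34.2, PWD/PHJ 38.5, MSM/Ms 43.3 and CAST/EiJ 49.5, while NON/ShiLtJ had 125. The fold was 3.55 lower (difference -1.83 ± 0.34, adjusted p = 0.00384, and 0.482 as 1 value), and the difference was -1.23 with 32 added to each intensity before the log. Rundc3b had 95.8 and 100.1 in NOD and 117 and 109 in NOR, against 116 in RIIIS/J and a comparison mean of 325. PL/J and SM/J, at 139 and 156, followed. Of the strains kept out, JF1/Ms had 133, PWD/PHJ and CAST/EiJ 147 each, MSM/Ms 170 and NON/ShiLtJ 174. The fold was 3.09 lower (difference -1.63 ± 0.32, adjusted p = 0.0104, and 0.876 as 1 value).

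Abcb1a, the paralog of Abcb1b that lies between them, had 93.1 and 79.7 in NOD and 86.6 and 86.6 in NOR against 88.7 to 163 (difference -0.50, adjusted p = 0.384). Abcb1a and Abcb1b are related in sequence, and cross-hybridization between them was not tested. Slc25a40 and Dbf4 on one side and Tmem243 on the other had differences of -0.78, -0.74 and -0.45, none of which passed on strain means (adjusted p = 0.139, 0.636 and 0.396). Abcb4, the next ABC transporter gene, did not share the difference (0.05, adjusted p = 1).

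**Figure D3:**
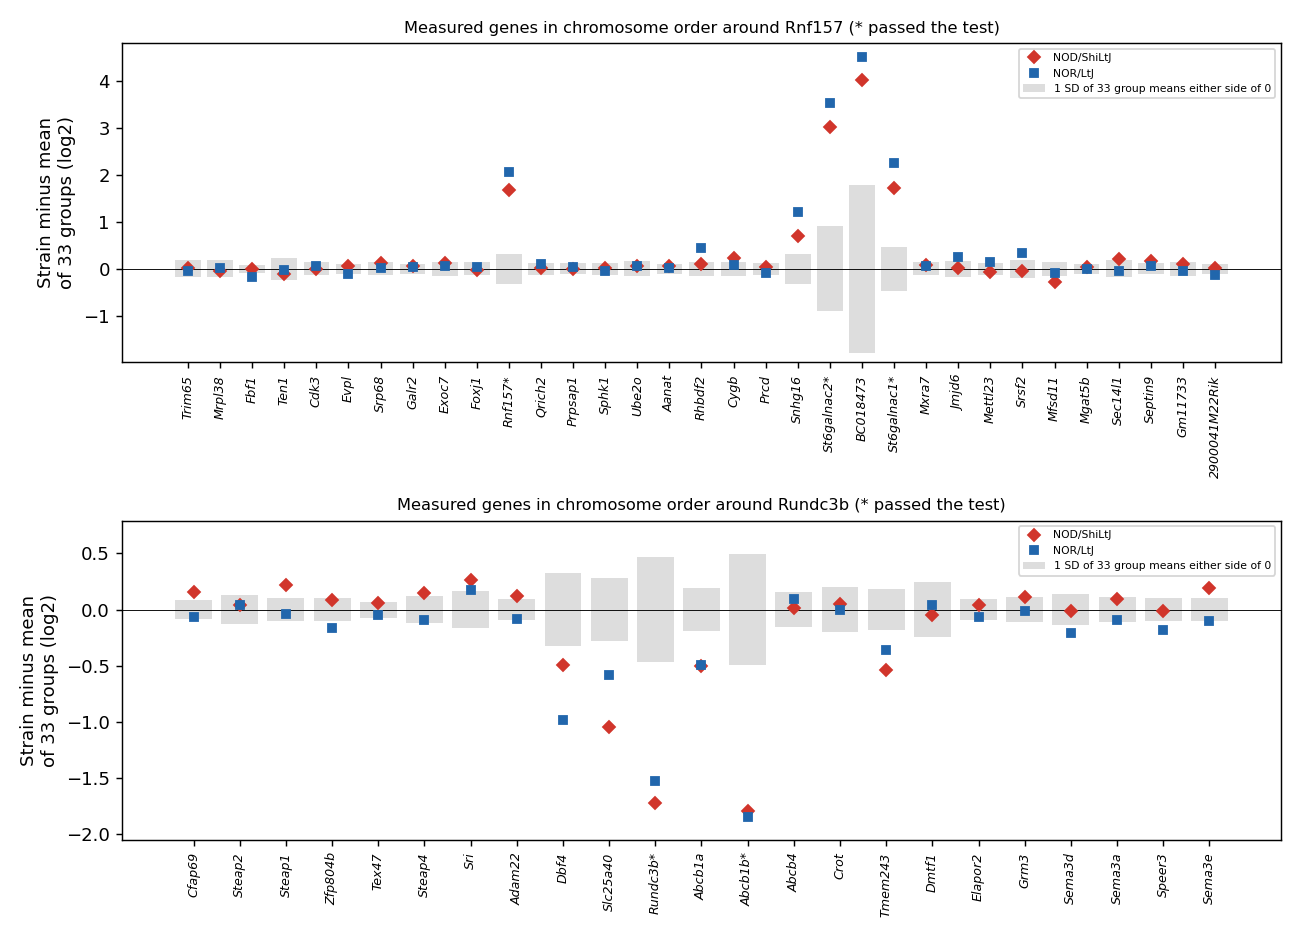
Difference of NOD (red diamonds) and NOR (blue squares) from the mean of the 33 groups (y axis, log2) for measured genes in chromosome order around the 2 runs, with 1 SD of the 33 group means either side of 0 in grey and a star on genes that passed. St6galnac2, BC018473 and St6galnac1 stand side by side above 1.7 in both strains, and Rundc3b and Abcb1b lie below -1.5 with Abcb1a at -0.50 between them.

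Promoter sequences are shown for the gene with the largest fall and for the 3 members of the runs that the RefSeq promoter table held. The table had promoters for 21 of the 24 named genes. They are the reference sequence of GRCm38.p6, from 250 bases before to 50 after each gene's start, and not the sequences of NOD or NOR. Capitals mark 4 short motifs on either strand. The TATA box (TATAAA) occurs in 13.6% of all 32851 promoters of the table. The CCAAT box (CCAAT) occurs in 37.4%, the GC box (GGGCGG) in 35.7% and the ETS motif (CCGGAAG) in 8.86%.
S100a11, chr3:93520246-93520545, plus strand: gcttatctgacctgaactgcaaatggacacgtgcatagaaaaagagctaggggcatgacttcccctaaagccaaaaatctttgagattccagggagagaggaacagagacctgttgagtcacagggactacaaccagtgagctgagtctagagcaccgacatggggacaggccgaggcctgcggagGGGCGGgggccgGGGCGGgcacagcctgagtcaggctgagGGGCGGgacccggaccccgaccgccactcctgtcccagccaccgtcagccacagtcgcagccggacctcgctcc
Rnf157, chr11:116412983-116413282, minus strand: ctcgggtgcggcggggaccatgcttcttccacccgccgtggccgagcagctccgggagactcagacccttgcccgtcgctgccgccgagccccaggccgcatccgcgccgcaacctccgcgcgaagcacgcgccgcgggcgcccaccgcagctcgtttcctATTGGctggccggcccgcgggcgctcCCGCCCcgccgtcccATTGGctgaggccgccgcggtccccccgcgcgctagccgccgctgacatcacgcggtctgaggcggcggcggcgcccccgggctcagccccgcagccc
Rundc3b, chr5:8622903-8623202, minus strand: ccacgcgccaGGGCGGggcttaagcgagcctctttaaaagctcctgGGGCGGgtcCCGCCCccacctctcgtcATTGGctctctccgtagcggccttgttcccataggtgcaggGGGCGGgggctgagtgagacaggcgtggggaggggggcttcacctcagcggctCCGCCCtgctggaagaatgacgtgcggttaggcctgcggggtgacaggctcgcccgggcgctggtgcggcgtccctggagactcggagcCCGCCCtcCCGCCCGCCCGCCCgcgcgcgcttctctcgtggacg
Abcb1b, chr5:8797897-8798196, plus strand: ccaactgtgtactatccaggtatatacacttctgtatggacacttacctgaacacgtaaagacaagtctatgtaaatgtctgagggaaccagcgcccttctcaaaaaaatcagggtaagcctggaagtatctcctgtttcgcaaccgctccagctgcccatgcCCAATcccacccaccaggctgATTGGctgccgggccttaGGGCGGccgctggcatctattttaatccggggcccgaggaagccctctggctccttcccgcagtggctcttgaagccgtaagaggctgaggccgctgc

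All 4 held the GC box, and Rnf157, Rundc3b and Abcb1b held CCAAT as well. Copies of the GC box overlap in Rundc3b. None of the 4 held TATAAA or CCGGAAG in this window. S100a11 had 61.7% G and C, Rnf157 78.3%, Rundc3b 71.7% and Abcb1b 55%, against a median of 52.7% over all promoters of the table. A match is a description of letters and not of a bound site.

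The 3 probe sets with the smallest adjusted p-values carry no gene symbol in the platform annotation. Probe set 10502050 had 207 and 396 in NOD and 662 and 479 in NOR, against 31.9 to 50.5 in the comparison groups (10.1-fold, adjusted p = 3.52e-20). Probe sets 10502052 and 10502042 were 6.74-fold and 5.69-fold higher (adjusted p = 2.26e-19 for both). In all 3 every NOD and NOR array lay at least 3 times above the highest of the 33 groups, and NON/ShiLtJ lay among those groups or level with the highest. The 3 probe sets also differed between NOD and NOR, with NOR higher (NOD minus NOR -0.98, -0.83 and -0.89, adjusted p = 0.0059, 0.00715 and 0.00138). They were chosen for mention after their values were seen.

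Lists of genes that describe the state of a T cell held few members that passed. None of the 23 measured naive T cell genes, 32 genes of the T cell receptor complex, 22 costimulatory and checkpoint receptors, 17 regulatory T cell genes or 34 type I interferon response genes passed, where 0.132% of all probe sets did. Their members with an unadjusted p under 0.05 numbered 1, 4, 3, 2 and 0 in that order, where 2.42% of all probe sets had one. With arrays as replicates 4, 6, 6, 2 and 1 passed, which is 17.4%, 18.8%, 27.3%, 11.8% and 2.94% of each list, against 3.60% of all probe sets. Of 34 genes of activated or memory T cells, S100a11 alone passed. Cd44, an adhesion receptor that rises on activated T cells, had 419.9 and 412 in NOD and 485 and 458 in NOR. All 4 lay above the highest comparison group (P/J, 362), yet the strain groups spread from 128 upward and the difference of 1.01 did not pass (adjusted p = 0.411). Cxcr4, the receptor of the chemokine CXCL12, had 1411 and 1092 in NOD and 1516 and 1787 in NOR against 171 to 1089, with a difference of 1.66 (adjusted p = 0.269).

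Candidate genes of the mapped NOD diabetes loci were given their own list, of which 24 of 30 genes were measured. None passed in the test of both strains against the 33 groups, where 2 had an unadjusted p under 0.05 and 3 (12.5%) passed with arrays as replicates, against 3.60% of all probe sets. Their median difference was -0.07 against 0.01 over all probe sets. A total of 18 lay below the comparison mean and 6 above, where 46.4% of all probe sets lay below. The largest was that of Icos, a costimulatory receptor of helper T cells, with 475 and 618 in NOD and 434 and 321 in NOR against 359 to 1393 (difference -0.91, adjusted p = 1). Cd72, a B cell surface protein, had a mean of 43.4 in NOD and 47.1 in NOR against 37.9 to 258 (difference -0.87, adjusted p = 1). Il2, the growth factor of T cells, had 32.98 in NOD and 32.2 in NOR against 30.5 to 42.7. Ctla4, an inhibitory receptor, had 187 in NOD and 110.1 in NOR against 95.8 to 372. Ptpn22, a phosphatase that restrains receptor signalling, had 1091 in NOD and 1135 in NOR against 812 to 1530, and B2m, the light chain of class I molecules, 10964 and 11207 against 9680 to 12454. For each of these the 2 strains lay inside the range of the others.

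The second question was where the diabetic strain and its resistant relative differ. NOD and NOR were contrasted in a limma model with all 82 arrays as replicates of 40 groups. A total of 126 probe sets passed (0.506%), 44 with NOD higher (0.177%) and 82 with NOR higher (0.329%), and 46 of them differed at least 2-fold, 15 with NOD higher and 31 with NOR higher. Without NOR replicate 1 the count was 81 and without NOR replicate 2 it was 77, against 85 and 89 without NOD replicates 1 and 2. With array weights it was 541. The arrays of a strain are 2 pools, so p-values measure the spread between pools of mice. Of the 24 genes named for the mean of both strains, Slc37a1 and Fbxl21 also differed between them, and Fbxl21 was inside the comparison range in NOD.

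Among the genes higher in NOD, the largest difference was that of Zfp979, a zinc finger gene. NOD had 213 and 232 and NOR 7.30 and 7.54, a 29.98-fold difference (4.91 ± 0.26 log2 units, adjusted p = 1.41e-20). The comparison groups fell on both sides, from 7.37 in LGJ to 183 in MA/MyJ, and C57BLKS/J had 9.25, near NOR. The NOR values lie far below the median of all values (113.1), and with 32 added to each intensity before the log the difference was 2.69. Cxcr2, a chemokine receptor of neutrophils, had 239 and 262 in NOD and 27.8 and 28.3 in NOR (difference 3.16 ± 0.23, adjusted p = 1.20e-14). C57BLKS/J had 26.9, and other comparison groups reached 260.0 in P/J. With 32 added to each intensity the difference was 2.23. Of the other 15 neutrophil markers 13 had a higher mean in NOD, and none passed. Their mean was 5.65 and 5.69 log2 units on the NOD arrays and 5.56 and 5.63 on the NOR arrays, and the part of such cells in the Cxcr2 value was not tested.

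Arhgap18, a GTPase-activating protein, had 229.6 and 235 in NOD and 61.0 and 54.2 in NOR, and here NOR was the strain outside the comparison range of 103 to 259.7 (difference 2.01 ± 0.18). C57BLKS/J had 163, inside that range. Dlg4, a scaffold protein best known from synapses, had 300.1 and 368 in NOD and 134 and 146 in NOR (difference 1.25 ± 0.14), with C57BLKS/J at 134 the lowest comparison group. Zbtb8a, Sdc3 (syndecan 3), Ehd4 (endocytic traffic) and Chst10 (a sulfotransferase) were 1.83-fold to 2.28-fold higher in NOD, and C57BLKS/J lay nearer to NOR in each. Zfp991 and Trdn passed with differences of 1.09 and 0.91 but lost the call without any 1 array for Zfp991 (adjusted p from 0.177 to 0.254) and without NOD replicate 2 or NOR replicate 1 for Trdn (0.291 and 0.580). Of the other 18 probe sets of Trdn, 1 passed.

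Among the genes higher in NOR, the largest difference was that of Trim12a, a member of a cluster of genes related to the antiviral restriction factor Trim5. NOR had 1117 and 1360 and NOD 36.8 and 41.8, a 31.4-fold difference (-4.97 ± 0.18 log2 units, NOD minus NOR, adjusted p = 4.92e-27). With 32 added to each intensity the difference was -4.15. C57BLKS/J had 1011, while the median of the comparison groups was 50.1, near NOD. Trim30d, of the same cluster, had 256 and 313 in NOR and 51.2 and 55.5 in NOD (difference -2.41 ± 0.23, adjusted p = 6.32e-11), and C57BLKS/J had 287. Of the 8 measured genes of the cluster 7 had a higher mean in NOR and 4 passed (50%, against 0.329% of all probe sets that passed with NOR higher). Trim34a (-0.88) and Trim12c (-1.15) were the others that passed, and the 4 are neighbours in the gene order. Their sequences resemble one another, and cross-hybridization was not tested.

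Cpm, a membrane carboxypeptidase, had 784 and 762.5 in NOR and 121 and 131 in NOD (difference -2.62 ± 0.17, adjusted p = 1.20e-16), with C57BLKS/J at 521. Pagr1a, a partner of histone methyltransferase complexes, had 1207 and 1238 in NOR and 391 and 378 in NOD, and NOD lay below every comparison group, the lowest of which had 587 (difference -1.67 ± 0.20, adjusted p = 9.03e-08). Desi1, a deSUMOylating enzyme, showed the same arrangement, with 1160 and 931 in NOR, 402 and 366 in NOD and 742 in the lowest comparison group (difference -1.44 ± 0.16, adjusted p = 7.58e-09). Pttg1, securin of the mitotic spindle checkpoint, had 429.6 and 361 in NOR and 125 and 127 in NOD, and C57BLKS/J had 356 (difference -1.65 ± 0.12, adjusted p = 1.45e-14).

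4 named genes of this direction did not follow C57BLKS/J. Cd59a, a membrane inhibitor of complement, had 147 and 65.0 in NOR and 25.9 and 25.2 in NOD, with C57BLKS/J at 23.9 (difference -1.93 ± 0.19, adjusted p = 4.06e-10, and -1.19 with 32 added to each intensity). Cdk5rap1, a mitochondrial tRNA-modifying enzyme, had 714 and 526 in NOR and 193 and 213 in NOD, with C57BLKS/J at 246 and the highest comparison group at 354 (difference -1.60 ± 0.18, adjusted p = 1.74e-08). Fbxl21, given above, was the third. Vmn2r96, a vomeronasal receptor gene, was the fourth, with C57BLKS/J at 16.2. It passed with a difference of -1.45 (adjusted p = 0.0373) and lost the call without any 1 array (adjusted p from 0.155 to 0.470) and with 32 added to each intensity (-0.86, adjusted p = 0.0786).

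**Figure D4:**
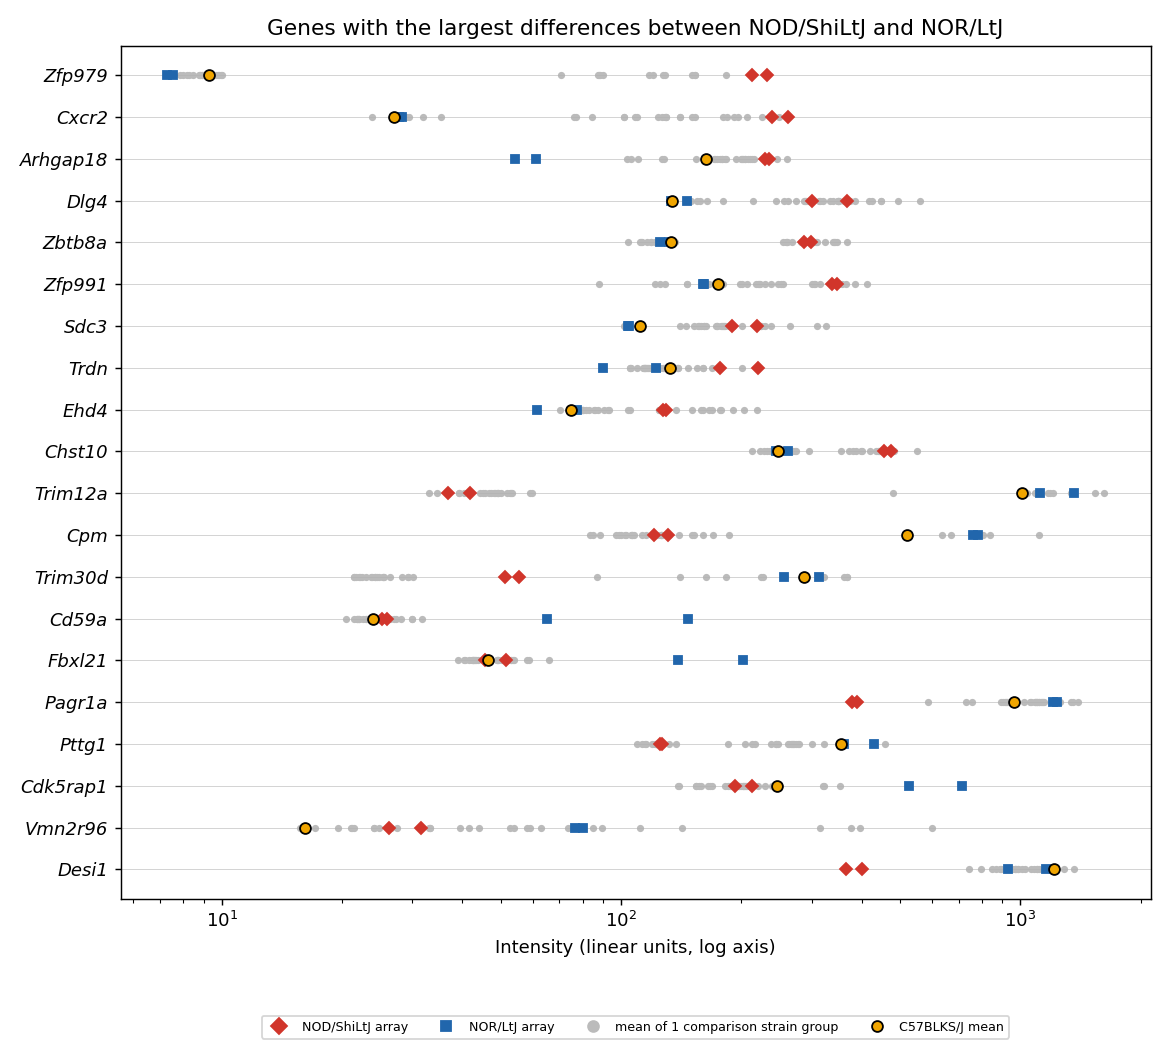
Intensity (x axis, log scale) of the 20 genes with the largest differences between NOD (red diamonds) and NOR (blue squares), with the means of the comparison groups in grey and C57BLKS/J in orange. For Zfp979 and Cxcr2 the orange point lies with NOR at 9.25 and 26.9, for Trim12a with NOR at 1011, and for Cd59a with NOD at 23.9.

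C57BLKS/J is the strain whose genome NOR carries beside that of NOD, and its levels were set against both. Of the 126 probe sets that differed, C57BLKS/J lay nearer to NOR than to NOD at 101 (80.2%), and at 53.4% of all other probe sets. The next group was C57BL/6J with 76 (60.3%), and the lowest was SWR/J with 34 (27.0%). Of the 126, C57BLKS/J lay within 0.5 log2 units of NOR at 103 and of NOD at 35. Among the 20 named genes it was nearer to NOR in 15, SM/J in 14, and KK.Cg-Ay/J and the C57BR-titled group in 13 each. These are counts over probe sets of single strain means and carry no test.

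**Figure D5:**
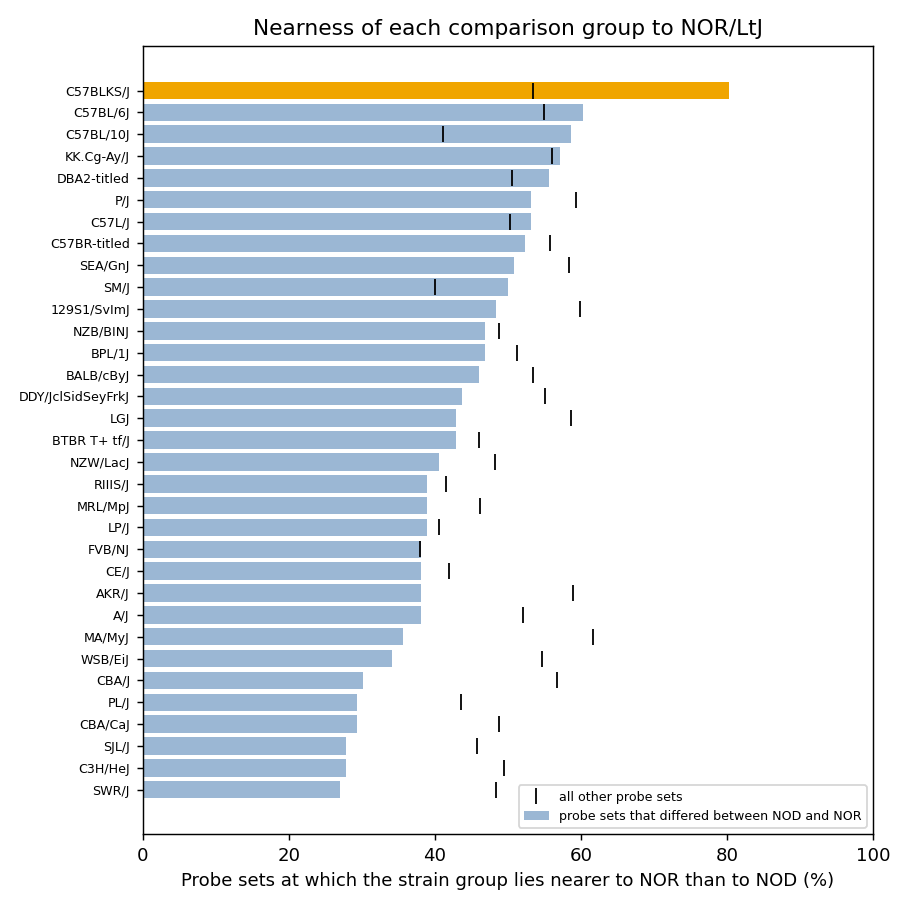
Share of the 126 probe sets that differed between NOD and NOR at which each of the 33 comparison groups lay nearer to NOR (bars, percent), with the same share over all other probe sets (black ticks). C57BLKS/J stands first with 80.2%, followed by C57BL/6J with 60.3%, and its tick lies at 53.4%.

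The genes that differed between NOD and NOR also lay together on the chromosomes. Of 90 placed genes, 26 (28.9%) had another that passed within 10 measured genes, against 7.24% of the other genes, and they formed 9 runs. The longest held 5 genes (Zfp991, Zfp985, Zfp979, Rps19-ps3 and Miip), of which Miip was higher in NOR and the others in NOD. The next held the 4 Trim genes.

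Most regulatory T cell genes had a higher mean in NOD than in NOR, in cells that were sorted without CD25. Of 17 genes, 15 had a higher mean in NOD, with a median difference of 0.61 and 9 at an unadjusted p under 0.05 (5.81% of all probe sets), where the median over all probe sets was 0.02 and 56.2% lay higher in NOD. Tnfrsf9, an activation-induced receptor also named for a NOD diabetes locus, had 209.6 and 293 in NOD and 152 and 142.2 in NOR and passed (difference 0.75 ± 0.18, adjusted p = 0.0237). Foxp3, the transcription factor that defines regulatory T cells, had 601 and 804 in NOD and 489 and 409.6 in NOR and did not pass (difference 0.63, adjusted p = 0.290). Il2ra, which encodes CD25, had 769 and 1065 in NOD and 599 and 514 in NOR (difference 0.71, adjusted p = 0.247). Ikzf2 (0.88, adjusted p = 0.129) and Ctla4 (0.76, adjusted p = 0.072) did not pass either. NOD replicate 2 was the highest of the 4 arrays for each of these 5 genes, and both strains lay inside the comparison ranges for all 5. Izumo1r, another gene of the list, had a mean of 646 in NOD and 424 in NOR. Its NOR mean lay below the lowest comparison group at 550 (NOD minus NOR 0.61, limma adjusted p = 0.21).

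Most genes of the type I interferon response had a higher mean in NOR. Of 34 genes, 31 had a higher mean in NOR, with a median difference of -0.25, where 43.8% of all probe sets had a higher mean in NOR. An unadjusted p under 0.05 was found for 8 of them, against 5.81% of all probe sets, and 2 passed, against 0.506%. Xaf1, an interferon-induced partner of apoptosis inhibitors, had 345 in NOD and 789 in NOR (difference -1.19, adjusted p = 1.74e-06), and Ifi27 had 427 and 635 (-0.57, adjusted p = 0.00561). The other 32 did not pass. C57BLKS/J had 916 for Xaf1 and 572 for Ifi27, nearer to NOR than to NOD in both. Xaf1 also lay in a run of neighbours that differed between NOD and NOR, with Cyb5d2. All 10 measured guanylate-binding proteins and immunity-related GTPases also had a higher mean in NOR (median -0.32). In limma 6 of the 10 had an unadjusted p under 0.05, and none passed (lowest adjusted p = 0.222).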

How the data were processed

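Expression was read with Affymetrix ST1.0 arrays in sorted splenic CD4 T cells. The values the authors deposited are intensities on a linear scale, already normalized between arrays. The submitters' processing notes name RMA and Affymetrix Power Tools, and versions and filters are not given in the sources used here. They were log2-transformed without other normalization or filtering, for 24922 probe sets on 82 arrays. The platform annotation gave 1 symbol to 21425 probe sets, several to 1399 and none to 2098, and only the first were named as genes. Array depth has no counts, so the number of arrays limits the precision. Probe sequences were not used here, and the part of strain differences under the probes in any value was not tested.

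Groups came from the array titles and background labels. NOD and NOR were set against 33 groups on strain means (33 residual degrees of freedom), and NOD against NOR in a model of all 82 arrays (42 residual degrees of freedom), with limma 3.58.1 in R 4.3.3 and a Benjamini-Hochberg threshold of 0.05. The scripts were tested on simulated data. The members, gene lists and tests were chosen with earlier results of these data known. Named genes had 1 established symbol and at least 1 strain whose mean exceeded 113, the median of all values. Up to 14 genes in each direction were named by the smaller of the NOD and NOR differences, and for NOD against NOR 10 in each direction by size. Of 36 gene lists, up to 4 members that passed were named for each list, and each list gene was represented by its probe set of highest mean. Groupings of named genes by role were made after their values were seen. Alternatives covered normalization, an offset of 32, leaving out the dimmest 40%, 1 probe set per symbol, other priors, a B cell covariate, other comparison strains and leaving out single arrays. Promoters came from RefSeq (GRCm38.p6), as did gene order. The series text speaks of bone marrow granulocytes, and the labels were followed for the cell type.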

Additional observations from a re-analysis of the deposited data

Results flagged for a closer look

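A total of 5 results differed between the 2 strains by the NOD against NOR contrast (limma, adjusted p below 0.05) although both strains together passed against the 33 groups. NOD minus NOR was -1.30 log2 units for Slc37a1, -1.79 for Fbxl21 and -0.98, -0.83 and -0.89 for the unannotated probe sets 10502050, 10502052 and 10502042.

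NON/ShiLtJ and the 4 strains with genomes of other subspecies were outside the comparison, and their means were looked up for the 24 named genes, 120 pairs of gene and group. In 25 pairs the mean lay beyond all 33 groups on the side of NOD and NOR, 8 of them in JF1/Ms, 7 in MSM/Ms, 6 in PWD/PHJ, 3 in CAST/EiJ and 1 in NON/ShiLtJ. Rnf157 had 647 in PWD/PHJ, 401 in MSM/Ms and 576 in JF1/Ms. Plaur had 312 in CAST/EiJ, 233 in PWD/PHJ, 549 in MSM/Ms and 512 in JF1/Ms, and all but PWD/PHJ lay above both NOD and NOR. Cd177 had 201 in PWD/PHJ, 228 in MSM/Ms and 280 in JF1/Ms. Rtca had 519 in PWD/PHJ, 465 in MSM/Ms and 524 in JF1/Ms. Retsat had 180 in CAST/EiJ, 164 in PWD/PHJ, 143 in MSM/Ms and 167 in JF1/Ms. Zgrf1 had 92 in PWD/PHJ and Slc37a1 had 1330 in MSM/Ms. Of the lower genes, Crbn had 1150 in CAST/EiJ and 1290 in both MSM/Ms and JF1/Ms. Abcb1b had 34.2 and Ankib1 789 in JF1/Ms, and Gimap3 had 2190 in NON/ShiLtJ. S100a11, Suclg2, Prkca, Gpr183, Saraf, St6galnac1, St6galnac2 and Cyp4f16 had no such group. Abhd15, Ehmt2, Fbxl21, Rundc3b and Fmo5 had none either. Means beyond the range on the other side from NOD and NOR were not counted. An example is Fmo5, with 399.8 in CAST/EiJ, 456 in PWD/PHJ, 484 in MSM/Ms and 445 in JF1/Ms, above the highest comparison group at 348. These differences were not tested.

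Among the 5 arrays of C57BL/6J, none of 43 genes held an array that stood apart by Dixon's criterion.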

How the results depend on the processing

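No named gene changed direction under any alternative. For NOD and NOR against the 33 groups, where 33 probe sets passed, 16 passed with both strains as 1 value, 16 with NOD alone, 19 with NOR alone, 897 with arrays as replicates and 946 with arrays and a replicate block. Leaving out single NOD or NOR arrays gave 29 to 36, and leaving out single comparison strains, an alternative added after seeing the data, 29 to 35. The count outside the range, 29, became 19 with all other strains included, and 26 to 30 without single arrays and 26 to 31 without single strains. For NOD against NOR, where 126 passed, 83 passed with 1 probe set per symbol, 541 with array weights and 77 to 89 without single arrays. The replicate block gave 123 and the crossed pairing, added later because same-numbered arrays deviated with r = -0.12, gave 127, so the numbers were not taken as pairs. Apart from the 1-value, single-strain and wider comparisons, 18 of the 24 genes and 17 of the 20 kept their calls in every alternative run. With those comparisons counted too, 4 of the 24 (S100a11, Prkca, Suclg2 and Ankib1) and 17 of the 20 did. With all other strains in the comparison, 22 probe sets passed.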

Other observations

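Fits with arrays as replicates of their group leave out the spread between strains, and 897 probe sets (3.60%) passed in them, so they are given here as values only. Among naive T cell genes, Actn1, an actin crosslinker, had 1864 in NOD and 1697 in NOR against a comparison mean of 2932 (difference -0.72, limma adjusted p = 4.66e-17 on arrays and 0.848 on strain means). Igfbp4, a binding protein of insulin-like growth factors, had 4030 and 4297 against 2989 (0.48, 3.95e-06 on arrays and 1 on strain means). P2rx7, an ATP-gated channel of the T cell surface, had 645 and 668 against 360.2 (0.87, 5.79e-13 and 1), with 129S1/SvImJ reaching 836. Slfn8, of the Schlafen family, had 736 and 795 against 375 (1.03, 1.04e-08 and 1), where the comparison groups ran from 28.9 to 960.

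Of the immediate early genes, Dusp5, a phosphatase of MAP kinases, had 367 and 253 in NOD and 328 and 337 in NOR, and both strain means lay below the lowest comparison group at 357 (difference -0.52, adjusted p = 0.492 on strain means). Of 34 cell cycle genes, 27 had a lower mean in NOD and NOR than in the comparison groups, with a median difference of -0.09, where 46.4% of all probe sets lay lower. In limma 1 had an unadjusted p under 0.05, where 2.42% of all probe sets had one, and none passed on strain means. On arrays 2 passed (5.88%, against 3.60% of all probe sets), in opposite directions. They were Ccnd3 as higher (0.44, adjusted p = 4.41e-07) and Mcm2 as lower (-0.24, adjusted p = 0.0234).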
